A study of Mus musculus with 2 samples.

Results

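The haemoglobin genes of the mouse were examined in single-nucleus RNA-seq of whole fetal brain. The 7 genes were taken by symbol from the 55416 features that both deposited count tables list: the embryonic genes Hba-x, Hbb-y and Hbb-bh1, and the adult genes Hba-a1, Hba-a2, Hbb-bs and Hbb-bt. Their UMIs (unique molecular identifiers, which count each captured RNA molecule once) were summed over all barcodes of each library, and again over barcodes with under 500 and with at least 500 detected genes. The genes were chosen by these measured values, namely their UMIs by library, by kind of globin and by the limit of 500 genes, which are therefore given as a description.

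The study compared wildtype mice with mice whose Cav1 gene was knocked out, with 1 library of whole fetal brain per genotype. Cav1 encodes caveolin 1, a protein that shapes small pits of the cell membrane. The labels name no strain, no gestational day, no sex, no number of pooled embryos and no detail of the knockout allele. Nuclei were isolated from frozen tissue by homogenization in lysis buffer and a sucrose cushion, and were captured with the 10x Genomics 3′ chemistry.

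The wildtype-labelled library held 9763 barcodes and 19048835 UMIs, with a median of 1524 UMIs per barcode. The knockout-labelled library held 10811 barcodes and 22504908 UMIs, with a median of 1213. No barcode held under 500 UMIs. Barcodes under 500 detected genes made up 30.4% and 36.1%. Cav1 itself had 83 (wildtype-labelled) and 87 (knockout-labelled) UMIs, so its RNA was not absent from the latter. These counts cannot decide the genotype, because the knockout allele is not described. Each library is therefore called by its label throughout. The libraries shared 43 barcode sequences, of which none held 20 or more haemoglobin UMIs. With 1 library per genotype no difference between them has a replicate check or a test, and all intervals are 95% intervals for counting error only. They treat UMIs as independent, which UMIs that sit together in a few barcodes are not, and sums over a library cannot tell fewer cells from less RNA per cell.

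Haemoglobin carries oxygen in red blood cells and is built from α-type and β-type globin chains, each holding a haem group. Red cells of the embryo's first wave arise in the yolk sac and enter the circulation as nucleated cells that make embryonic globins, among them the α-type chain of Hba-x (ζ) and the β-type chains of Hbb-y and Hbb-bh1. Red cells made later in the fetal liver carry the adult chains and lose their nuclei. Neurons, glia and vessel cells of the brain are not red cells, so they serve here as the comparison for nuclei of red cells.

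In GRCm39, with the GENCODE M39 annotation, the α-type genes lie on the plus strand of chromosome 11 and the β-type genes on the minus strand of chromosome 7. Hba-x spans 32226400 to 32228116, Hba-a1 spans 32233186 to 32234504 and Hba-a2 spans 32246168 to 32247320. On chromosome 7, Hbb-bt spans 103461727 to 103465047, Hbb-bs spans 103475730 to 103482989, Hbb-bh1 spans 103490844 to 103492371 and Hbb-y spans 103500956 to 103502423. Each gene has 3 exons. Adult copies resemble each other: of all windows of 98 bases, the length of the sequenced cDNA read, 70.5% of those in the Hba-a1 transcript also occur in Hba-a2, and 58.7% of those in Hbb-bs also occur in Hbb-bt. The embryonic transcripts shared no such window with another member. The division of UMIs between Hba-a1 and Hba-a2, and between Hbb-bs and Hbb-bt, is therefore uncertain. How reads that match both copies were counted is not given in the sources used here, so the adult sums, the β to α ratio and the embryonic percent may be affected as well. Whether counting used the strand is likewise not given in the sources used here, and Hbb-bs, Hbb-bt and Hbb-bh1 each overlap another annotated gene.

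The promoters are shown because some haemoglobin-rich barcodes held mostly embryonic and others mostly adult UMIs of the same loci. RefSeq sequences on the GRCm38.p6 build were available for 6 of the 7 genes, and the 150 bases before each start are printed 5′ to 3′ on the gene's own strand. Capitals mark, on either strand, 4 short motifs that textbooks describe in globin promoters: the CACCC box, the CCAAT box, TATAA of the TATA box, and GATAA, the core that GATA factors bind. Positions are chr11:32276450-32276599 (plus) for Hba-x, chr7:103853208-103853357 (minus) for Hbb-y, chr11:32283522-32283671 (plus) for Hba-a1, chr7:103827929-103828078 (minus) for Hbb-bs and chr7:103813924-103814073 (minus) for Hbb-bt.
Hba-x: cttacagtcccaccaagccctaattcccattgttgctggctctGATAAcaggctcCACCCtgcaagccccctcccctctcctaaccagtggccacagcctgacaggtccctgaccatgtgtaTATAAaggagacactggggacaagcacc
Hbb-y: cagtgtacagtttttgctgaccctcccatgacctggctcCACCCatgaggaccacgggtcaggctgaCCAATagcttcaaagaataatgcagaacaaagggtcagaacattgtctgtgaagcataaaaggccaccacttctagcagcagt
Hba-a1: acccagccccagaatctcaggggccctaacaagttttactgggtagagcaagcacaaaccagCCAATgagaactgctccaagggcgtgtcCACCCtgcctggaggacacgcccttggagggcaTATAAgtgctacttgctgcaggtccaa
Hbb-bs: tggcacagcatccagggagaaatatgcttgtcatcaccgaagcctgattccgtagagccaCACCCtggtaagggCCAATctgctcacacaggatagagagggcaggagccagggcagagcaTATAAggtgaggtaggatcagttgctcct
Hbb-bt: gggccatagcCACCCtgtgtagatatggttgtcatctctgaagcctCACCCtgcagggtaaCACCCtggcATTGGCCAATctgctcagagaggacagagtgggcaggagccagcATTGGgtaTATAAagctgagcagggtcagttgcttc

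CACCC or its reverse complement GGGTG occurred in 6 of the 6 promoters, against 37.4% of all 32851 RefSeq promoter windows of this length. CCAAT or ATTGG occurred in 5 of 6 (24.5% of all windows) and TATAA or TTATA in 5 of 6 (14.2%). GATAA or TTATC occurred in 1 of 6, Hba-x (13.3%). The windows of Hba-a1 and Hba-a2 share an unbroken run of 147 bases, so only the former is printed. In Hbb-bt an ATTGG and a CCAAT stand side by side without overlap. These letters are a description of the windows and show no bound factor.

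Haemoglobin RNA was counted in both libraries, and adult genes supplied most of it. The 7 genes together had 27524 wildtype-labelled UMIs, 0.144% of all (0.143% to 0.146%), and 28130 knockout-labelled UMIs, 0.125% (0.124% to 0.126%). The adult β-type genes stood highest. Hbb-bs had 14911 and 14869 UMIs, or 783 and 661 CPM (the UMIs of a gene scaled to the same total in each library), with the wildtype-labelled value first here and below. Hbb-bt had 5318 and 5302 UMIs, 279 and 236 CPM. The adult α-type genes were lower, with 2669 and 2723 UMIs for Hba-a1 (140 and 121 CPM) and 2018 and 1985 UMIs for Hba-a2 (106 and 88.2 CPM).

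Of the embryonic genes, Hbb-y, which encodes the embryonic εy chain, was counted at a level near that of the adult α-type genes. It had 2354 UMIs (124 CPM, 119 to 129) and 2851 UMIs (127 CPM, 122 to 131). Hba-x had 249 UMIs (13.1 CPM) and 393 UMIs (17.5 CPM). Hbb-bh1, the βh1 gene of the first red cells, was close to the counting limit with 5 and 7 UMIs. The order of levels was Hbb-bs, Hbb-bt, Hba-a1, Hbb-y, Hba-a2, Hba-x and Hbb-bh1 in the wildtype-labelled library. In the knockout-labelled library Hbb-y stood above Hba-a1 (121 CPM, 116 to 126), and the counting intervals of these neighbours overlapped. In 3′ counting a molecule gives 1 UMI whatever its length, so levels were compared between genes without a length correction.

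β-type UMIs outnumbered α-type UMIs by 4.58 to 1 and by 4.51 to 1. Within the adult pairs, Hbb-bs had 2.80 UMIs per Hbb-bt UMI in both libraries, and Hba-a1 had 1.32 and 1.37 per Hba-a2 UMI. The embryonic pair differed more, with 9.45 and 7.25 Hbb-y UMIs per Hba-x UMI. Embryonic genes gave 9.48% of haemoglobin UMIs (9.13% to 9.83%) and 11.6% (11.2% to 11.9%).

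**Figure D1:**
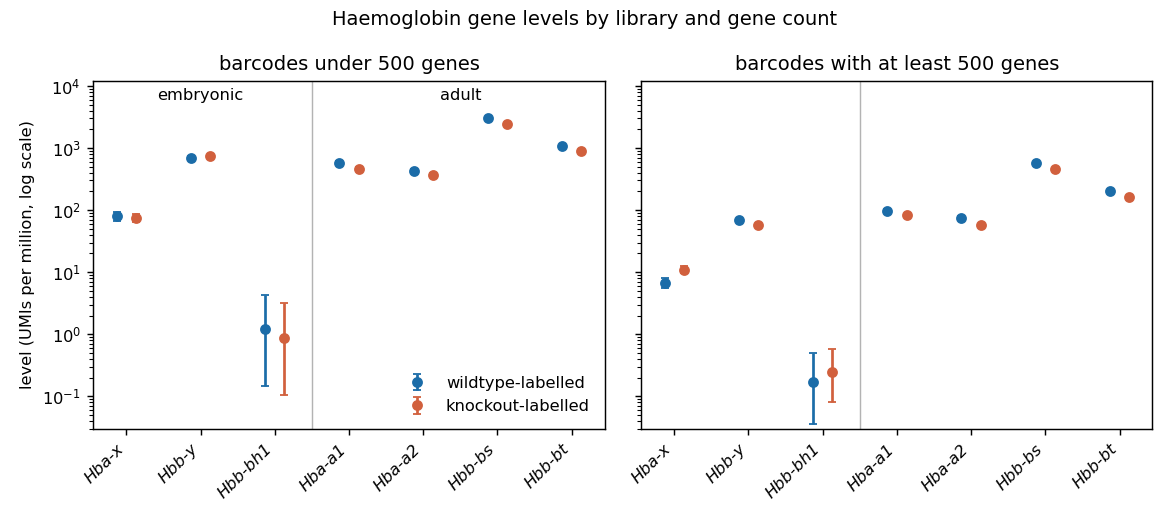
Level of each haemoglobin gene in CPM (log scale) in barcodes under 500 genes (left) and with at least 500 genes (right), with 1 point per library and bars for the exact Poisson 95% interval of counting error. All 7 points of each library stand higher on the left, where the intervals of Hbb-bh1 overlap those on the right, and Hbb-bs is highest and Hbb-bh1 lowest in each panel.

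Between the libraries, the adult genes were slightly lower in the knockout-labelled one and no member differed by 2-fold. The log2 ratio of CPM, knockout-labelled over wildtype-labelled, was −0.24 (−0.28 to −0.21) for Hbb-bs, −0.24 (−0.30 to −0.19) for Hbb-bt, −0.21 (−0.29 to −0.13) for Hba-a1 and −0.26 (−0.35 to −0.17) for Hba-a2. The adult sum gave −0.24 (−0.27 to −0.22). Over the 15862 genes with at least 100 UMIs in both libraries together, 0.548% were 2-fold apart in either direction, 0.41% higher and 0.139% lower in the knockout-labelled library. Of the 6 members that passed this minimum (all but Hbb-bh1), 0 were among them. The median ratio over all these genes was −0.01. Their 5th and 95th percentiles were −0.32 and 0.42, a range that holds the ratio of each adult gene.

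The embryonic genes gave no steady direction. Hbb-y had a log2 ratio of 0.04 (−0.04 to 0.12), Hba-x of 0.42 (0.19 to 0.65) and Hbb-bh1 of 0.24 (−1.63 to 2.24). Their sum gave 0.08 (0.00 to 0.15). This value rested on very few barcodes. A knockout-labelled barcode with 882 haemoglobin UMIs held 705 of that library's 2851 Hbb-y UMIs. Without this barcode and the wildtype-labelled barcode that also had at least 50% haemoglobin UMIs, which held 0 embryonic UMIs, the ratio of the embryonic sum was −0.30 (−0.38 to −0.22). In barcodes with at least 500 genes it was −0.14 (−0.25 to −0.03).

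Barcodes with few haemoglobin UMIs gave a more even picture. When barcodes with 20 or more haemoglobin UMIs were left out, a limit chosen after seeing the data, the log2 ratio was −0.34 (−0.44 to −0.23) for Hbb-y, −0.10 (−0.40 to 0.20) for Hba-x, −0.36 (−0.40 to −0.33) for Hbb-bs, −0.41 (−0.47 to −0.36) for Hbb-bt, −0.27 (−0.35 to −0.19) for Hba-a1 and −0.35 (−0.45 to −0.25) for Hba-a2. The remaining mixture had nearly the same makeup in both libraries. Hbb-bs made up 55.7% and 55.5% of its haemoglobin UMIs, Hbb-bt 20.4% and 19.6%, Hba-a1 9.66% and 10.3%, Hba-a2 7.42% and 7.47%, and Hbb-y 6.11% and 6.22%, in the wildtype-labelled and knockout-labelled library. All embryonic genes together made up 6.85% (6.54% to 7.17%) and 7.10% (6.77% to 7.44%).

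Scaled to UMIs, haemoglobin was higher in the barcodes under 500 genes. In the wildtype-labelled library it was 0.588% of UMIs under the limit (0.577% to 0.600%) and 0.102% above it (0.101% to 0.104%). The knockout-labelled library gave 0.497% (0.488% to 0.507%) and 0.0832% (0.0820% to 0.0845%). Hbb-bs was 5.36-fold and 5.26-fold higher in CPM under the limit, Hbb-bt 5.19-fold and 5.40-fold, Hba-a1 5.85-fold and 5.67-fold and Hba-a2 5.61-fold and 6.50-fold. Hbb-y was 10.3-fold and 13.2-fold higher, and Hba-x 11.8-fold and 6.94-fold. The larger folds of the embryonic genes rested in part on few barcodes. Of the barcodes of 20 or more haemoglobin UMIs, 8 and 12 lay under the limit of 500 genes. Without all barcodes of 20 or more, Hbb-y was 5.74-fold (5.16 to 6.38) and 4.75-fold (4.25 to 5.30) higher and Hba-x 9.13-fold (6.73 to 12.4) and 4.65-fold (3.42 to 6.29). The adult sum was then 5.01-fold (4.87 to 5.15) and 5.25-fold (5.11 to 5.40) higher, and the embryonic sum 6.04-fold (5.46 to 6.67) and 4.73-fold (4.27 to 5.25). The embryonic fold thus stayed above the adult one in the wildtype-labelled library only. These 6 members were thus among the 17.1% (wildtype-labelled) and 16.8% (knockout-labelled) of all genes at least 2-fold higher there, a contrast that the choice of the set used and from which nothing is read.

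Counted per barcode, the adult genes were nearly level across the limit. Hbb-bs averaged 1.70 UMIs per barcode under 500 genes and 1.45 above among wildtype-labelled barcodes, and 1.41 and 1.35 among knockout-labelled ones. Hbb-bt, the second adult β-type gene, averaged 0.593 and 0.523 UMIs, and 0.512 and 0.478. The embryonic Hbb-y differed more, with 0.393 and 0.175 UMIs per barcode, and 0.436 and 0.166. Without the barcodes of 20 or more haemoglobin UMIs it averaged 0.182 and 0.145, and 0.127 and 0.135, so the difference was small in the one library and of the opposite sign in the other. Around the limit itself, barcodes with 450 to 499 genes averaged 3.02 (wildtype-labelled) and 2.31 (knockout-labelled) UMIs of the 7 genes, and those with 500 to 549 genes averaged 3.10 and 2.85.

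A haemoglobin UMI was present in most barcodes of whatever depth, in 89.6% of wildtype-labelled and 85.1% of knockout-labelled ones. Barcodes with 0 such UMIs numbered 1019 and 1611, those with 1 to 4 numbered 7391 and 8334, those with 5 to 9 numbered 1289 and 791, and those with 10 to 19 numbered 44 and 41. Only 20 and 34 barcodes had 20 or more. Barcodes with under 10 held 88.3% and 79.5% of all haemoglobin UMIs. The embryonic UMIs were more concentrated: the 20 and 34 barcodes held 34.7% and 50.05% of embryonic UMIs, against 7.08% and 14.5% of adult UMIs.

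**Figure D2:**
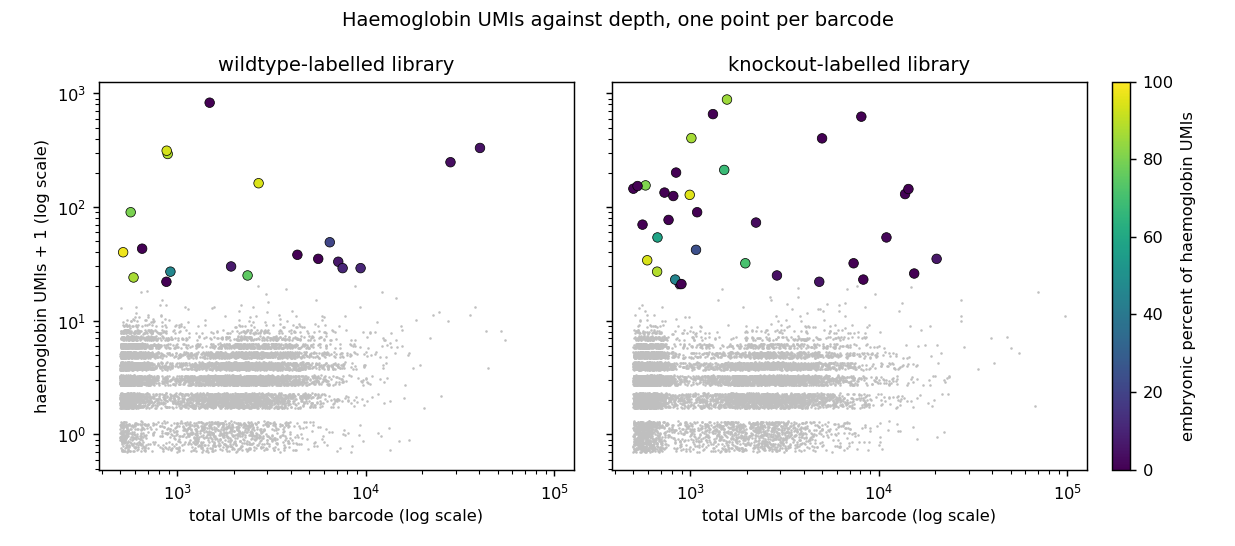
Haemoglobin UMIs plus 1 of each barcode against its total UMIs (both axes log scale, small vertical jitter on the grey points), with barcodes of 20 or more haemoglobin UMIs coloured by the embryonic percent of those UMIs. The grey band shows no steady rise or fall from 500 to 10000 UMIs. The coloured points, 20 wildtype-labelled and 34 knockout-labelled, are mostly dark (adult) or light (embryonic).

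Among barcodes with under 20 haemoglobin UMIs, the number per barcode did not follow depth in one direction. The means were lowest at 1000 to 1500 UMIs (wildtype-labelled) and 1500 to 2500 (knockout-labelled), and rose with depth above that. In the wildtype-labelled library the mean was 2.74 (2.69 to 2.80) at 500 to 700 UMIs, 2.98 at 700 to 1000, 1.86 at 1000 to 1500, 2.26 at 1500 to 2500, 2.63 at 2500 to 5000 and 2.94 at 5000 to 10000. The knockout-labelled means were 2.19, 2.28, 1.84, 1.80, 2.13 and 2.52 over the same ranges. Above 10000 UMIs the means were 4.57 over 70 barcodes and 2.95 over 140. Spearman's rho between haemoglobin UMIs and total UMIs was −0.01 in each library, over 9743 and 10777 barcodes that share a library. It spans a fall and then a rise of the means, so it does not show that counts and depth were unrelated. The percent of UMIs meanwhile went from 0.484% in the shallowest to 0.0275% in the deepest wildtype-labelled barcodes, and from 0.371% to 0.0174% in the knockout-labelled ones.

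The spread of the counts depended on the rich barcodes. Over all barcodes under 500 genes the variance was 89.9 (wildtype-labelled) and 131 (knockout-labelled) times the mean, where Poisson counts have 1, and over those with at least 500 genes 12.7 and 43.2 times. Leaving out barcodes with 20 or more haemoglobin UMIs, which lowers this ratio by construction, gave 1.18 and 1.15 under 500 genes and 1.48 and 1.52 above. Without them the mean was 2.75 UMIs under 500 genes and 2.47 above it for wildtype-labelled barcodes, and 2.17 and 2.10 for knockout-labelled ones. When every barcode was thinned to 500 UMIs, which left out none, the share with a haemoglobin UMI was 90.3% under 500 genes and 43.5% above it for wildtype-labelled barcodes, and 82.5% and 39.1% for the others. The unthinned shares were 92.8% and 88.2%, and 86.8% and 84.1%.

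**Figure D3:**
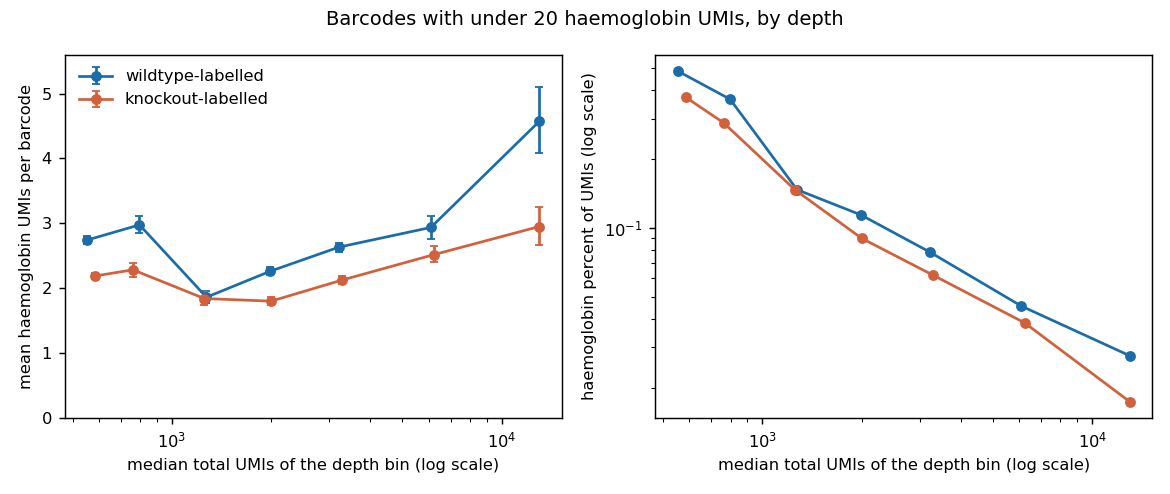
Barcodes with under 20 haemoglobin UMIs in 7 ranges of total UMIs: mean haemoglobin UMIs per barcode with its Poisson 95% interval (left) and haemoglobin percent of UMIs on a log scale (right), against the median total UMIs of the range (log scale). The means stay between 1.80 and 4.57 UMIs, while the percent goes from 0.484% to 0.0275% and from 0.371% to 0.0174%.

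A small number of barcodes were rich in haemoglobin, and they fell into an embryonic and an adult kind. At least 50% of UMIs came from the 7 genes in 1 barcode of each library, at least 25% in 3 wildtype-labelled and 6 knockout-labelled barcodes, and at least 10% in 4 (0.0410% of barcodes, 0.0112% to 0.105%) and 12 (0.111%, 0.0574% to 0.194%). Of the 4 wildtype-labelled barcodes at 10% or more, 1 held 0 embryonic UMIs and 3 held between 79.8% and 93.6% embryonic UMIs. Of the 12 knockout-labelled barcodes, 7 held 0 embryonic UMIs among 1478 and 5 held between 67.8% and 95.3%. None lay between 10% and 60%.

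The adult kind showed no embryonic transcript beside many adult ones. The richest wildtype-labelled barcode held 827 haemoglobin UMIs of 1487 in all, namely 564 of Hbb-bs, 110 of Hba-a1, 79 of Hbb-bt and 74 of Hba-a2, and 0 of the embryonic genes, which allows an embryonic share of up to 0.445% by the exact binomial bound. A knockout-labelled barcode held 656 of 1321, with 358 of Hbb-bs, 193 of Hbb-bt, 60 of Hba-a1 and 45 of Hba-a2. The ratio of the adult β-type genes varied between such barcodes: Hbb-bs had 7.14 UMIs per Hbb-bt UMI in the wildtype-labelled barcode and 2.55 over the 7 knockout-labelled ones.

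The embryonic kind was led by Hbb-y and kept some adult RNA. The knockout-labelled barcode with the highest share held 882 haemoglobin UMIs of 1568, namely 705 of Hbb-y, 49 of Hba-x, 42 of Hba-a1, 35 of Hbb-bs, 34 of Hba-a2 and 17 of Hbb-bt. In the wildtype-labelled library the leading barcode of this kind held 312 of 880, with 264 of Hbb-y and 28 of Hba-x. Hba-x, the partner chain, did not follow Hbb-y in fixed proportion. A knockout-labelled barcode with 211 haemoglobin UMIs had 67 of Hba-x and 76 of Hbb-y, whereas over all 5 of that kind there were 7.41 Hbb-y UMIs per Hba-x UMI, and 14.1 over the 3 wildtype-labelled ones. Hbb-bh1 gave 1 UMI in the embryonic kind of each library.

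With the limit lowered to 20 haemoglobin UMIs, the embryonic kind still stood apart, and the adult kind did so less clearly. In the wildtype-labelled library 9 barcodes had under 10% embryonic UMIs, 4 had 10% to 60% and 7 had at least 60%. Knockout-labelled barcodes split into 23, 3 and 8. For most of the 9 and part of the 23, the exact interval included the embryonic percent of barcodes with under 20 haemoglobin UMIs (6.85% and 7.10%). Examples were 0% to 16.1% for a wildtype-labelled barcode with 21 haemoglobin UMIs and 0% to 13.7% for a knockout-labelled one with 25. Such barcodes cannot be told from that mixture by their embryonic percent. Of the 23, 15 held 0 embryonic UMIs. Barcodes of very different depth were among them: 2 wildtype-labelled barcodes with 28146 and 40353 UMIs held 247 and 330 haemoglobin UMIs, of which 3.64% and 4.85% were embryonic, with 20.8% and 19.5% ribosomal protein UMIs.

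**Figure D4:**
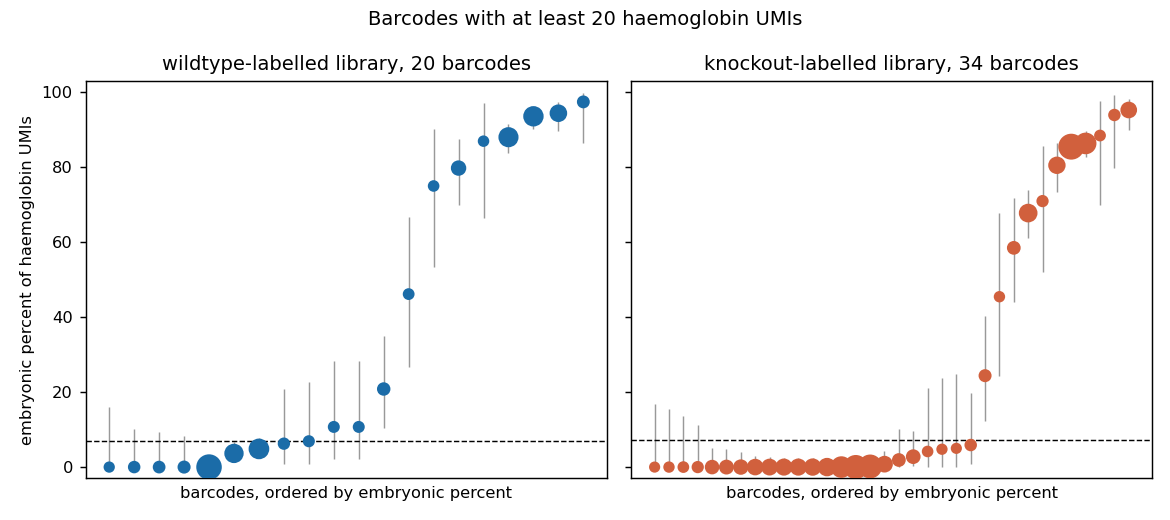
Embryonic percent of haemoglobin UMIs in each barcode with at least 20 of them, in increasing order, with exact binomial 95% intervals; point area grows with the square root of the barcode's haemoglobin UMIs and the dashed line is the percent over barcodes with under 20 (6.85% and 7.10%). Of the 20 wildtype-labelled and 34 knockout-labelled barcodes, 4 and 3 lie between 10% and 60%.

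Other red cell genes were sought in the haemoglobin-rich barcodes, which were chosen without them. The list of 15 erythroid markers had 14 members among the features, Ahsp having no row. In the 12 knockout-labelled barcodes with at least 10% haemoglobin these markers had 34 UMIs, a level of 4409 CPM of the UMIs of other genes, against 109 CPM in all other barcodes, a 40.6-fold higher level (28.0 to 56.9). Because most of these barcodes were shallow, the lists were also set against the other barcodes under 500 genes, a comparison added after seeing the data, where the fold of the markers was 81.4 (54.0 to 120). Among them were Alas2 with 11 UMIs, which starts haem synthesis in red cells, Slc4a1 with 6, the anion exchanger of the red cell membrane, Slc25a37 with 5, Tspo2 with 4 and Sptb with 3. The transcription factor genes Klf1 and Gata1 had 0. In the 4 wildtype-labelled barcodes the list had 2 UMIs, a level 8.21-fold that of the rest with an interval of 0.994 to 29.7, and 16.1-fold (1.92 to 59.8) that of the other barcodes under 500 genes. Within the knockout-labelled barcodes, 5 of the 7 of the adult kind held 29 marker UMIs, and 3 of the 5 of the embryonic kind held 5. The 34 marker UMIs were thus spread over only 8 of the 12 barcodes, and unevenly. A barcode with 124 haemoglobin UMIs held 12 of them, and those with 656 and 69 haemoglobin UMIs held 6 each. The folds describe the pooled UMIs, and their intervals do not cover this spread between barcodes.

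The wider lists of red cell genes, which share members such as Alas2, Slc4a1 and Tspo2 with the markers, were counted in the same barcodes. Genes of red cell maturation and enzymes had 88 UMIs in the 12 knockout-labelled barcodes, 13.2-fold the level elsewhere (10.6 to 16.2) and 6.03-fold that of the other barcodes under 500 genes (4.83 to 7.45). Bpgm, a red cell enzyme that tunes oxygen release, had 19 of them, 24.6-fold its level in those shallow barcodes (14.5 to 39.3), and Mkrn1, a ubiquitin ligase, had 17 (11.7-fold, 6.76 to 18.98). Prdx2, an antioxidant enzyme abundant in red cells, had 10, which against the shallow barcodes was 1.14-fold with an interval of 0.544 to 2.09. Haem synthesis and iron uptake had 28 UMIs (10.7-fold, 7.09 to 15.4, and 13.1-fold, 8.63 to 19.1, against the shallow barcodes), among them those of Alas2, of Fech, which inserts iron into haem, and of Slc25a37, the mitochondrial iron importer. Red cell membrane genes had 24 (8.18-fold, 5.24 to 12.2, and 10.3-fold, 6.52 to 15.4), with 9 from Epb41. Erythroid transcription factors had 1 UMI (0.136-fold, 0.00343 to 0.756), but against the shallow barcodes the interval included 1 (0.298-fold, 0.00754 to 1.67). Most UMIs of that list in the whole knockout-labelled library came from Bcl11a with 10494 and Sox6 with 8090, genes that neurons also express. Its other members had 0 UMIs in the 12 barcodes, which allows up to 3.71-fold their level elsewhere. In the 4 wildtype-labelled barcodes these lists had 7, 1, 3 and 4 UMIs. The fold of the maturation list was 3.45 (1.39 to 7.11), and 1.59 (0.638 to 3.28) against the shallow barcodes. That of the transcription factors was 1.53 (0.416 to 3.91) and 3.75 (1.02 to 9.64). For haem synthesis and the membrane the interval included 1 in both comparisons.

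Summed over whole libraries, the same lists hardly separated the genotypes. Of the listed genes with at least 20 UMIs, 0 of 16 for haem synthesis and iron uptake, 0 of 12 for the red cell membrane and 0 of 13 for red cell maturation and enzymes were 2-fold apart, and 1 of 11 erythroid transcription factors was, against 2.7% of all 21447 genes at this minimum in either direction, 1.79% higher and 0.914% lower in the knockout-labelled library. That gene was Gata2, a transcription factor of blood progenitors and of brainstem and midbrain neurons, with 37 (wildtype-labelled) and 97 (knockout-labelled) UMIs. The median log2 ratios of the lists were −0.04, 0.17, −0.01 and −0.18, in the order named. Unlike the haemoglobin genes, some of these genes had a lower CPM in barcodes under 500 genes than in the rest. Alas2 had 775 and 902 UMIs, of which 14 and 36 were in barcodes under 500 genes, a log2 ratio of −2.38 and −1.43 to the others, and Ank1, a gene of the membrane skeleton, had 842 and 1023 with 6 and 15 there.

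Haemoglobin UMIs were also counted by class of nucleus, to give the level in nuclei that are not of red cells. After clustering without any globin gene, 11 classes of nuclei were named from marker genes, among them cortical excitatory neuron-like, forebrain inhibitory neuron-like, radial glia-like and choroid plexus epithelium-like nuclei, types that whole fetal brain holds. No cluster met the naming rule for erythroid cells. Clustering took only nuclei with at least 500 genes, however. Every one of the 4 wildtype-labelled barcodes with at least 10% haemoglobin fell below this limit. In the knockout-labelled library 9 out of 12 such barcodes did. The lack of an erythroid cluster therefore cannot decide whether red cell nuclei were captured. The class names were rebuilt here, since no annotation by the authors was used. Of the 7 genes together, the mean in cortical excitatory neuron-like nuclei was 2.21 UMIs (2.12 to 2.29; 1279 nuclei) among wildtype-labelled nuclei and 1.88 (1.79 to 1.97; 928 nuclei) among knockout-labelled ones. Forebrain inhibitory neuron-like nuclei had 2.25 (2.15 to 2.35) and 1.78 (1.68 to 1.88), and radial glia-like nuclei 2.23 (2.11 to 2.35) and 1.92 (1.78 to 2.07).

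These levels lay close together across neurons, glia and mesenchymal cells. Mural cell-like nuclei had 2.21 and 1.90 UMIs, choroid plexus epithelium-like nuclei 2.31 and 1.75, microglia or macrophage-like nuclei 2.56 and 1.77 over only 18 and 13 nuclei, Cajal-Retzius cell-like nuclei 2.48 and 1.97, and fibroblast-like nuclei 2.67 and 2.65. Of cortical excitatory neuron-like nuclei, 85.2% (83.2% to 87.1%) and 81.9% (79.3% to 84.3%) held a haemoglobin UMI, at median depths of 2148 and 2352 UMIs. Thinned to 500 UMIs per nucleus the shares there were 37.8% and 33.8%. Because nuclei that are not of red cells reached such shares, shares at or below these values are not read here as expression of the genes. The source of these UMIs was not tested. The knockout-labelled mean was the lower in 10 of the 11 classes, all but endothelial cell-like. In fibroblast-like nuclei the intervals (2.33 to 3.04 and 2.32 to 3.03) nearly coincided.

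Endothelial cell-like nuclei, which line vessels, had the highest mean of the named classes in both libraries. The mean per nucleus was 3.89 UMIs (3.28 to 4.58, 37 nuclei) for wildtype-labelled and 24.5 (23.1 to 25.9, 48 nuclei) for knockout-labelled nuclei. Without the 2 nuclei that held 623 of 8085 and 401 of 5006 UMIs, nearly all adult, with 1 and 0 embryonic UMIs, the knockout-labelled mean was 3.30, still above the 1.75 to 2.65 of the other named classes. No wildtype-labelled nucleus of this class held 20 or more haemoglobin UMIs, but 1 held 19 of the 144 in all. The embryonic share in the knockout-labelled endothelial cell-like nuclei was 1.96% (1.24% to 2.92%), against 6.94% (3.38% to 12.4%) in the wildtype-labelled ones. Without the same 2 nuclei it was 14.5% (9.30% to 21.1%; 22 of 152 UMIs), an interval that overlaps the wildtype-labelled one. In cortical excitatory neuron-like nuclei it was 6.27% (wildtype-labelled) and 6.93% (knockout-labelled).

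Unnamed clusters had means of 3.40 (3.31 to 3.50) and 2.79 (2.71 to 2.86) UMIs. One of them, with marker genes of forebrain inhibitory neurons but led by genes of dividing cells such as E2f2, Stil and Cdca2, had 2.24 and 1.91 UMIs over 306 and 294 nuclei. Within them the cluster of lowest depth, with medians of 740 and 705 UMIs and ribosomal protein genes in the lead, had 5.03 and 3.45 UMIs per nucleus and 6 and 7 nuclei with 20 or more. The depth and the ribosomal protein share of these nuclei moved with the haemoglobin count, and their part in it was not tested.

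**Figure D5:**
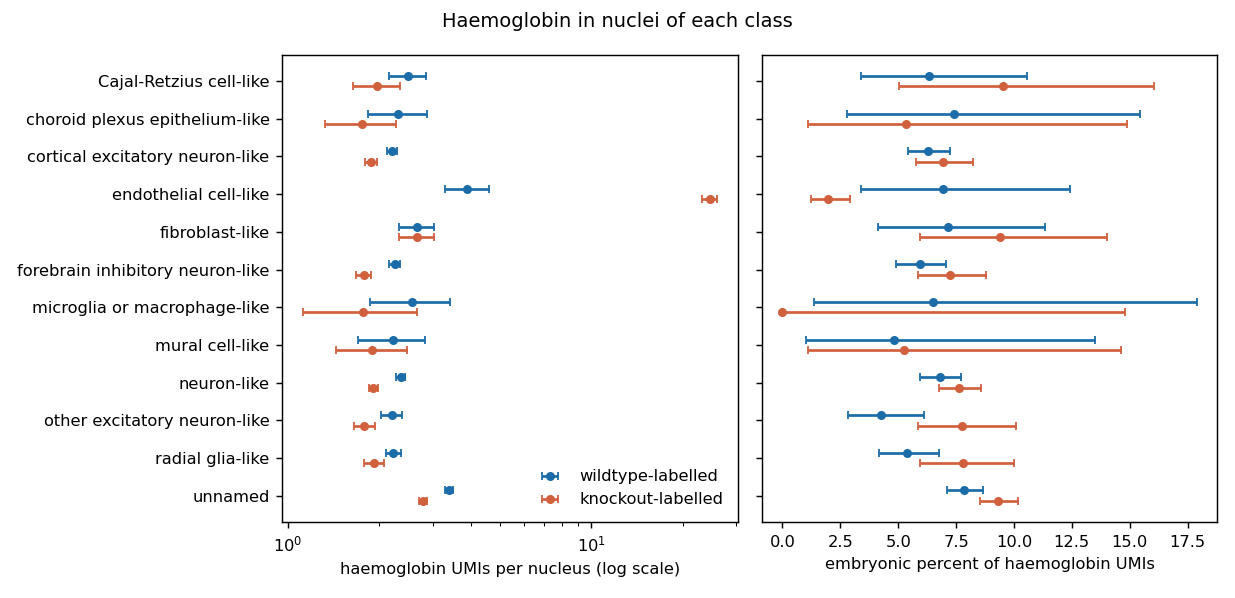
Mean haemoglobin UMIs per nucleus (left, log scale, Poisson 95% interval) and embryonic percent of those UMIs (right, exact binomial 95% interval) in each class of nuclei with at least 500 genes, by library. Most classes lie between 1.75 and 2.67 UMIs per nucleus; knockout-labelled endothelial cell-like nuclei lie at 24.5, and at 3.30 without 2 nuclei.

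Genes with the most similar pattern over barcodes were, like haemoglobin, higher in CPM in the shallow barcodes. Over 15856 genes, likeness to the summed haemoglobin genes was taken as the lower of the libraries' Pearson r of log-scaled counts per 10000 UMIs. The 10 highest were Rn18s (0.50), a ribosomal RNA gene, Tmsb4x (0.47) and Tmsb10 (0.34), which encode actin-binding thymosins, Cmss1 (0.39), Tpt1 (0.36), Rps29 (0.33), a ribosomal protein gene, Mir6236 (0.33), Tuba1a (0.31), a tubulin gene, Ptma (0.31) and Stmn1 (0.31). The median gene had −0.05 and the 99th percentile was 0.109. The points share their library, and depth enters each r. All 10 had a log2 ratio of CPM under 500 genes over that above of between 1.70 and 2.29, and no erythroid marker was among them.

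Likeness was also taken between single haemoglobin genes, whose counts are mostly 0 or 1 per barcode, so that these r are not comparable with those of the sum. Hbb-bs and Hbb-bt had r of 0.16 and 0.14. Hba-x and Hbb-y had 0.11 and 0.13, and 0.05 and 0.04 without the barcodes of 20 or more haemoglobin UMIs.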

How the data were processed

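The values deposited by the authors are unscaled UMI counts for each feature in each barcode. Per the file headers, the software was Cell Ranger 6.1.1. The submitters' processing notes name Cell Ranger 3.0.1, STAR and GRCm39. The annotation, intron counting and use of strand are not given in the sources used here. Barcodes and feature names were deposited as text by the authors, and 0 columns of values per sample were left unused.

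UMIs were summed per library in Python 3.11.15 (numpy 2.4.6, scipy 1.17.1, pandas 2.3.3) and scaled to CPM. Intervals (95%) are exact Poisson for counts, Clopper-Pearson for shares and conditional binomial for ratios. Ratios, intervals and likeness were tested on simulated data. Nuclei with at least 500 genes and at most 5% mitochondrial UMIs were clustered in scanpy 1.11.5 (2000 variable genes, 30 components, 15 neighbours, Leiden resolution 1), without globin genes, Cav1, Xist, Tsix and Y-linked genes. Scrublet's own threshold marked 0 nuclei, so the 8% with the highest scores were removed, leaving 6151 and 6146 nuclei in 23 clusters. A name needed 3 markers at 2-fold (1.5-fold within each library), the best list's markers among the 10 leading genes or more than 50% of that list, no more leading markers of another list, and for low-UMI clusters a leading marker; remaining clusters of general neuron markers were called neuron-like. No neuron name was given to a cluster led by 3 genes of dividing cells, a rule added after seeing the clusters. In all, 5 clusters stayed unnamed, some with enough markers. The thresholds for naming were chosen with the clusters in view. Members, marker lists and red cell lists were chosen with earlier results of these data known. Named genes are the members, the listed genes and the 10 genes of at least 100 UMIs most like the summed members. Scaling, barcode limits, depth, the gene minimum and doublets were varied.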

Additional observations from a re-analysis of the deposited data

How the results depend on the processing

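Of 82 alternative values, 33 stayed within the counting interval or within 1.5 times the count, 44 moved and 5 reversed. The embryonic log2 ratio of 0.08 became −0.14 in barcodes with at least 500 genes, −0.30 without barcodes of 50% haemoglobin and −0.039 when thinned to 500 UMIs. With alternatives chosen after seeing the data it was −0.31 without barcodes of 20 or more haemoglobin UMIs, 0.17 per barcode and −0.21 with both. In the same order the adult ratio of −0.24 was −0.31, −0.20, −0.11, −0.36, −0.15 and −0.27, and −0.30 under 500 genes, so it was negative in each of the settings run. Scaling by the median gene and leaving out shared barcode sequences moved neither.

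The embryonic percent (9.48% wildtype-labelled, 11.6% knockout-labelled) was 13.3% and 16.6% under 500 genes, 7.36% and 8.17% above, 6.85% and 7.10% without barcodes of 20 or more (then 7.68% and 6.67% under 500 genes, 6.45% and 7.35% above, so the direction across the limit differed between the libraries), and 9.16% in the knockout-labelled library without its barcode of 50%. Rich barcodes numbered 1 and 1 at 50%, 3 and 6 at 25%, and 4 and 12 at 10%. The haemoglobin percent under the gene limit was 1.00% and 1.41% at 400 genes, 0.538% and 0.465% at 700, 0.539% and 0.459% without barcodes of 50%, and 0.491% and 0.374% without barcodes of 20 or more. Above the limit it was 0.134% and 0.116% at 400, 0.0907% and 0.0695% at 700, and 0.0968% and 0.0717% without barcodes of 20 or more. Genes 2-fold apart numbered 87 at a minimum of 100 UMIs and 580 at 20. The highest mean per nucleus among named classes of at least 100 nuclei was 2.35 and 1.92, 2.62 and 2.94 (fibroblast-like) with doublets kept, and 3.65 and 2.97 (radial glia-like) at a minimum of 300 genes, where that class took in the shallow barcodes. The cause of the other changes was not tested.

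No paired analysis was possible because each genotype has 1 library and no result comes from a test. Depth limits Hbb-bh1, whose interval spans over 2-fold in both directions, and the erythroid markers in the wildtype-labelled barcodes.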

Other observations

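The globins that are not part of red cell haemoglobin were sparse in these libraries. Cygb, which encodes the widely expressed cytoglobin, had 144 (wildtype-labelled) and 185 (knockout-labelled) UMIs, with a log2 ratio between libraries of 0.12 (−0.20 to 0.45). Ngb, the gene of neuroglobin, had 13 and 19 UMIs, and Mb, the gene of myoglobin, had 13 and 26. At the haemoglobin loci themselves the minor genes were close to nothing, with 4 and 2 UMIs for Hbb-bh0, 0 and 1 for Hbq1a, 2 and 2 for Hbq1b and 0 and 0 for Hbb-bh2.

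Genes of platelets and of the cells that shed them, megakaryocytes, were counted as well. Their 5 markers had 272 (wildtype-labelled) and 189 (knockout-labelled) UMIs. Pf4, which encodes a platelet chemokine, had 167 and 84 UMIs, Itga2b, which encodes the platelet integrin chain, had 78 and 87, and Gp9, of the platelet adhesion receptor, had 15 and 1. None of the 5 had a UMI in a barcode with at least 10% haemoglobin.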
